A study of Mus musculus with 8 samples.

Results

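Tubulins are the proteins of which microtubules are built. An alpha and a beta tubulin join into a dimer, and dimers add to and leave the ends of the filament. Mammals carry several genes of each kind, called isotypes, which share most of their sequence and differ mainly in the acidic tail at the carboxyl end. In a cardiomyocyte, microtubules carry cargo and bear load beside the sarcomeres, and in any dividing cell they form the spindle. The 10 genes described here are 5 alpha tubulins (Tuba1a, Tuba1b, Tuba1c, Tuba4a and Tuba8) and 5 beta tubulins (Tubb2a, Tubb2b, Tubb3, Tubb5 and Tubb6). They were taken by Entrez ID from the 27179 genes of the count table, and all 10 were found in it.

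Neonatal cardiomyocytes (NCMs) were isolated on postnatal day 0 from male C57Bl/6J mice, and 1 heart made 1 library. Dissociated ventricular cells were kept briefly in a dish with the antimitotic Ara-C so that fibroblasts settled, and the cells still in suspension were taken, so the NCMs are enriched and not sorted. The dams breathed filtered air (FA, 4 libraries, replicates 2, 3, 4 and 6) or diesel exhaust (DE, 4 libraries, replicates 1, 3, 5 and 7) through most of gestation. Which hearts came from the same litter is not stated, so p-values measure the spread between these hearts. The sample names carry the number 11 in all 4 FA libraries and in DE replicates 1 and 7, and the number 12 in DE replicates 3 and 5. What the number stands for is not stated. Library totals ran from 17943024 to 39839737 counted fragments. The 12 cardiomyocyte markers on the list used here were all detected, with a summed level of 80474.5 to 85690.1 CPM (counts scaled to a common library total) in FA and 68223 to 79164 CPM in DE, without overlap. In DE 10 of the 12 had a log2 fold change below 0 (median -0.11), and by edgeR Myh6 (-0.67, adjusted p = 0.00315) and Pln (-0.38, adjusted p = 0.0360) fell and Myh7 (0.53, adjusted p = 0.0157) rose. With single libraries left out 2 to 4 of the 12 were called, and 1 was called among libraries that carry the number 11.

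Some of the isotypes share long stretches of sequence, which bears on how well reads tell them apart. The last 60 bases of the coding sequence, stop codon included, are given for 4 of the beta tubulins, since this is where isotypes differ most. They are from GENCODE M21 on GRCm38 and lie in the last coding exon. Capitals mark bases that differ from the first sequence, that of Tubb2b, or have no counterpart in it, in a global alignment of the coding sequences.
Tubb2b, chr13:34127471-34127530, minus strand: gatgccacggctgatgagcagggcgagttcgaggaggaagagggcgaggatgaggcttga
Tubb2a, chr13:34074468-34074527, minus strand: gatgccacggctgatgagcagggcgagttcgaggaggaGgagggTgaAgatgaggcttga
Tubb5, chr17:35834982-35835041, minus strand: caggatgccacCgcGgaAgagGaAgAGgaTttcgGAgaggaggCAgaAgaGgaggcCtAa
Tubb3, chr8:123421623-123421682, plus strand: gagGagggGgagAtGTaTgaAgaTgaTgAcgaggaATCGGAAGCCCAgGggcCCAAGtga

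Even in this stretch Tubb2a differed from Tubb2b at 3 bases, while Tubb5 had 16 marked bases and Tubb3 28. The coding sequences have 1338 bases in Tubb2a and Tubb2b, 1335 in Tubb5 and 1353 in Tubb3. The last 60 bases of Tubb5 and Tubb3 therefore do not match those of Tubb2b base for base, and missing bases are not marked. Over the whole coding sequence Tuba1a and Tuba1b were 98.3% identical, Tuba1b and Tuba1c 97.9%, and Tubb2a and Tubb2b 96.5%. Of the windows of 50 bases along the main transcript, 52.0% of those of Tuba1a, 64.6% of Tuba1b and 59.8% of Tuba1c occurred unchanged in another of the 10 genes, as did 45.6% of Tubb2a and 33.4% of Tubb2b. Counting every other annotated gene, pseudogenes and predicted genes included, the shares were 75.5% for Tuba1a, 83.1% for Tuba1b, 61.0% for Tuba1c, 49.6% for Tubb2a and 39.3% for Tubb2b. For Tubb3 and Tubb6 no window was found elsewhere, and for Tubb5 0.115% were. Tuba4a and Tuba8 shared none with the other members, and 48.8% and 14.7% of their windows with other genes, nearly all with the overlapping genes Stk16 and Gm15856. How the authors counted fragments that match several genes is not stated, so the separate values of Tuba1a, Tuba1b and Tuba1c, and those of Tubb2a and Tubb2b, are uncertain. Exons of Tuba1a and Tuba1b also overlap Gm49450 on the same strand, and on the opposite strand those of Tuba1b overlap Gm41396, those of Tuba4a overlap Stk16 and those of Tuba8 overlap Gm15856. The strand setting of the counting is not stated.

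Levels of different genes were compared as normalized CPM per kilobase of annotated exon. In FA the highest was Tuba1b, a widely expressed alpha tubulin, at 55.8 ± 11.1 CPM per kilobase (SD, n = 4). No other member reached its range. Tubb5, the common beta tubulin of many tissues, followed at 30.4 ± 7.32, then Tubb2a at 28.0 ± 5.21, Tubb6 at 24.6 ± 3.33, Tubb2b at 20.3 ± 2.53 and Tuba1a at 18.6 ± 4.52 CPM per kilobase. Each of these 5 overlapped its neighbour in range between libraries. The place of Tubb6 depended on the length used, since by the length of the main transcript alone it was at 34.1 ± 4.61 CPM per kilobase, above Tubb2a at 28.0 ± 5.21. Tuba4a at 6.56 ± 1.17 and Tuba1c at 4.69 ± 0.861 CPM per kilobase overlapped each other, with Tuba4a the higher in 4 of 4 libraries, and lay below them. Tuba8 at 0.499 ± 0.0933 and Tubb3, best known from neurons, at 0.321 ± 0.105 CPM per kilobase were the lowest and overlapped each other, with Tuba8 the higher in 4 of 4 libraries. In DE, Tuba1b was again the highest at 83.7 ± 7.27 CPM per kilobase. Tubb6 was at 28.2 ± 4.31 CPM per kilobase of exon, below Tuba1a at 30.8 ± 2.94, and at 39.1 ± 5.98 CPM per kilobase of the main transcript, above it.

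**Figure D1:**
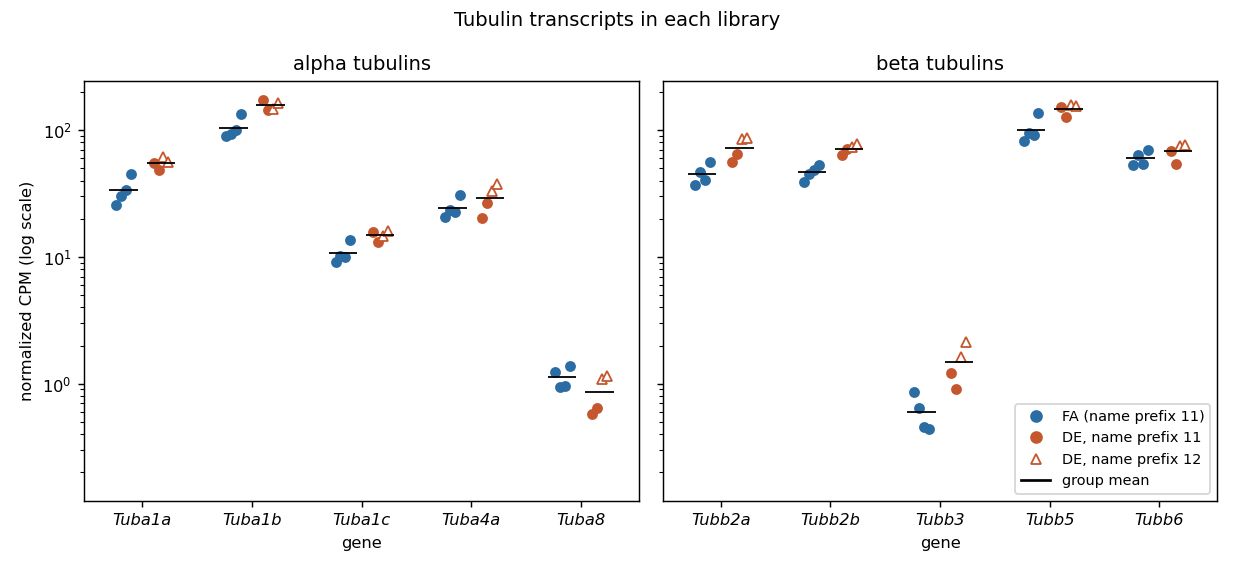
Normalized CPM of the 5 alpha (left) and 5 beta (right) tubulin genes in each library, on a log axis. Points are single libraries and the bar is the group mean (n = 4 per group). The groups do not overlap for Tuba1a, Tuba1b, Tubb2a, Tubb2b and Tubb3, and the open triangles of DE replicates 3 and 5 are the upper DE points for 8 of the 10 genes (29.9% of all tested genes).

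To ask whether in utero exposure to DE changed tubulin transcripts, the groups were compared by edgeR's quasi-likelihood test on each of the 14966 genes that passed the filter on low counts. A gene was called where its Benjamini-Hochberg adjusted p was at most 0.05 and the groups differed by at least 25%. All 10 members passed the filter. Tuba1a, Tuba1b, Tubb2a, Tubb2b and Tubb3 rose in DE and none fell, so 5 of 10 were called, against 5.8% of all tested genes (3.58% called higher and 2.22% called lower). A log2 fold change above 0 was found in 9 of the 10, against 50.5% of all tested genes. The median log2 fold change of the 10 was 0.57, against 0.00 for all tested genes. The same 5 genes were those whose CPM ranges did not overlap between groups, which held, with DE higher, for 7.43% of all tested genes. The members are paralogs that share reads, so they are not independent of one another.

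Among the alpha tubulins, Tuba1a (Entrez gene 22142, at 98949847 to 98953501 on chromosome 15 of the GRCm38.p6 build), the isotype known for its part in growing neurons, was at 25.8, 30.2, 33.5 and 44.9 CPM in FA replicates 2, 3, 4 and 6. In DE replicates 1, 3, 5 and 7 it was at 54.9, 61.8, 56.3 and 48.9 CPM. Every DE library lay above every FA library. The mean rose from 33.6 ± 8.16 to 55.5 ± 5.31 CPM (SD, n = 4 each), or by 0.73 in log2 fold change (standard error, SE, 0.16, edgeR adjusted p = 0.0247). Tuba1b (Entrez gene 22143, chromosome 15 from 98931429 to 98934390) was at 89.3, 93.5, 100.6 and 135.0 CPM in FA. In DE it was at 172.6, 148.2, 163.7 and 143.1 CPM. The lowest DE library was just above FA replicate 6, the highest of the FA libraries. Its log2 fold change was 0.59 (SE 0.14, edgeR adjusted p = 0.0323).

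The other alpha tubulins were not called. Tuba1c (Entrez gene 22146, chromosome 15 from 99029891 to 99038105), the third gene of the cluster that also holds Tuba1a and Tuba1b, was between 9.20 and 13.6 CPM in FA and between 13.1 and 16.0 CPM in DE, so the groups overlapped through FA replicate 6. Its log2 fold change was 0.47 (95% interval 0.17 to 0.78, adjusted p = 0.0679, edgeR). Tuba4a (Entrez gene 22145, chromosome 1 from 75214972 to 75221261), an alpha tubulin known for lacking an encoded terminal tyrosine, was at 20.7, 23.3, 22.5 and 30.5 CPM in FA and at 20.4, 33.1, 37.4 and 26.6 CPM in DE. The lowest of the 8 libraries was DE replicate 1, and the highest were DE replicates 3 and 5. Its log2 fold change was 0.28 (95% interval -0.13 to 0.68, adjusted p = 0.364, edgeR). Tuba8 (Entrez gene 53857, chromosome 6 from 121210734 to 121226098), a divergent alpha tubulin, was the only member with a lower mean in DE, 1.13 ± 0.211 CPM in FA and 0.863 ± 0.297 CPM in DE. It rests on 225 counts over the 8 libraries, and its log2 fold change of -0.36 had a 95% interval of -0.96 to 0.24 (adjusted p = 0.426, edgeR).

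Of the beta tubulins, Tubb2b (Entrez gene 73710, chromosome 13 from 34127008 to 34130354) showed the difference with the smallest adjusted p. It was at 39.2, 45.3, 48.3 and 53.1 CPM in FA and at 63.7, 73.2, 77.3 and 70.7 CPM in DE. The groups did not overlap, with at most 53.1 CPM in FA and at least 63.7 CPM in DE. This gap was smaller than the range within either group. The mean rose from 46.5 ± 5.80 to 71.2 ± 5.70 CPM (SD, n = 4 each), or by 0.62 in log2 fold change (SE 0.11, edgeR adjusted p = 0.0117). Its near copy Tubb2a (Entrez gene 22151, chromosome 13 from 34074278 to 34078008) was at 37.0, 47.1, 40.3 and 56.0 CPM in FA and at 56.1, 85.1, 86.1 and 64.3 CPM in DE. DE replicate 1 was barely above FA replicate 6, and DE replicates 3 and 5 were far above both. The log2 fold change of Tubb2a was 0.70 (SE 0.17, edgeR adjusted p = 0.0360).

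Tubb3 (Entrez gene 22152, chromosome 8 from 123411553 to 123422015), a beta tubulin used as a neuronal marker, had the largest fold change of the 10 and few counts. It had 32, 13, 8 and 9 counts in FA replicates 2, 3, 4 and 6, or 0.856, 0.648, 0.451 and 0.443 CPM. In DE replicates 1, 3, 5 and 7 it had 40, 57, 86 and 17 counts, or 1.21, 1.64, 2.14 and 0.906 CPM. The lowest DE library and the highest FA library were close. The mean rose from 0.599 ± 0.195 to 1.47 ± 0.538 CPM (SD, n = 4 each), or by 1.27 in log2 fold change (95% interval 0.57 to 1.96, adjusted p = 0.0421, edgeR).

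Tubb5 and Tubb6 were not called. Tubb5 (Entrez gene 22154, chromosome 17 from 35833920 to 35838301) was at 81.5, 94.9, 91.2 and 136.6 CPM in FA and at 152.7, 159.1, 154.4 and 126.1 CPM in DE. The groups overlapped only in that FA replicate 6 lay above DE replicate 7. Its log2 fold change was 0.55 (95% interval 0.21 to 0.89, adjusted p = 0.0587, edgeR). Tubb6 (Entrez gene 67951, chromosome 18 from 67390731 to 67402749), an isotype known from regenerating striated muscle, was between 52.8 and 69.7 CPM in FA and between 54.0 and 76.9 CPM in DE. Its log2 fold change was 0.20 (95% interval -0.10 to 0.49, adjusted p = 0.375, edgeR).

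**Figure D2:**
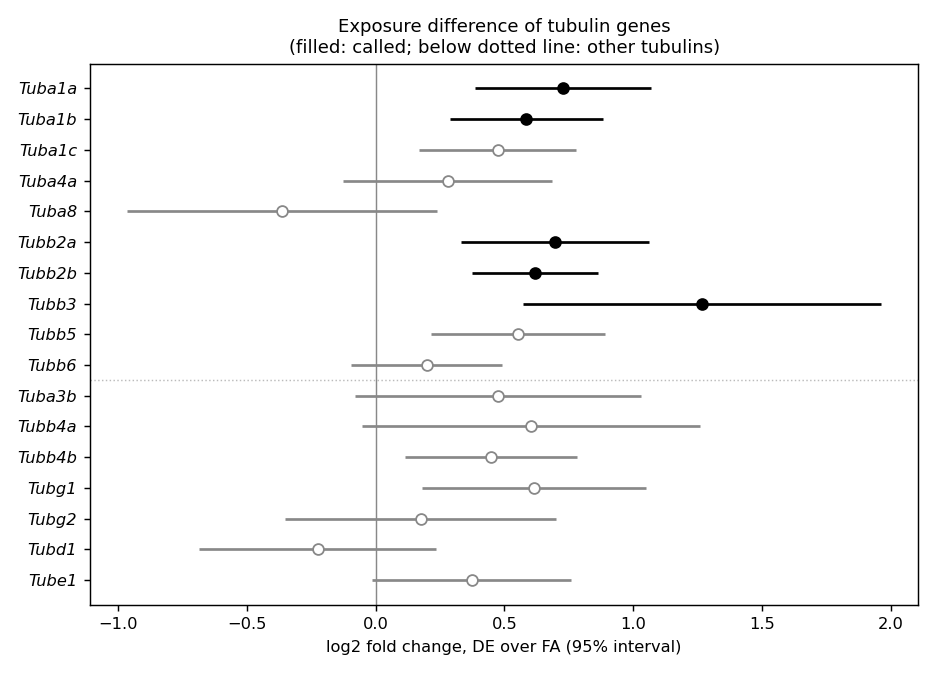
Log2 fold change of DE over FA with its 95% interval (edgeR, 4 libraries per group) for the 10 members, above the dotted line, and the 7 other tubulins that were tested, below it. Filled points are called genes. Tuba8 and Tubd1 lie left of 0, and the interval of Tubb3, from 0.57 to 1.96, is the widest among the called genes.

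Reads exchanged among the 5 members of a kind leave their sum unchanged, whereas reads lost or given to genes outside it do not. The sums were compared without a test because the members had been chosen. Summed alpha tubulin was at 146.3, 158.1, 167.5 and 225.5 CPM in FA and at 264.2, 258.7, 274.5 and 232.3 CPM in DE. The means were 174.3 ± 35.2 and 257.4 ± 18.0 CPM, a ratio of 1.48. Summed beta tubulin was at 211.3, 251.7, 234.1 and 315.7 CPM in FA and at 342.0, 394.7, 396.8 and 316.1 CPM in DE. The means were 253.2 ± 44.8 and 362.4 ± 40.0 CPM, a ratio of 1.43. Both sums were higher in every DE library than in any FA library, although for beta tubulin FA replicate 6 and DE replicate 7 were within 1 CPM of each other. Within the libraries that carry the number 11 the log2 ratios were 0.50 for alpha and 0.37 for beta tubulin, against 0.56 and 0.52 over all libraries.

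The make-up of the sums, which hold the 5 members of each kind and leave out Tubb4b, differed as well. Tubb6 gave 23.8 ± 1.55% of the beta sum in FA and 18.9 ± 1.24% in DE, with ranges of 22.1% to 25.3% and 17.1% to 19.9% that did not overlap. With Tubb4b added to the beta sum, Tubb6 gave 16.3 ± 0.796% in FA and 13.2 ± 1.01% in DE, also without overlap. Tuba8 gave 0.656 ± 0.124% of the alpha sum in FA and 0.333 ± 0.103% in DE, and Tuba1c 6.17 ± 0.204% and 5.76 ± 0.160%. The share of Tuba1a was 19.2 ± 1.09% in FA and 21.6 ± 1.57% in DE. These 4 genes had shares that did not overlap between the groups, and no background for such a separation was taken. For Tuba1c the ranges nearly touched, at 5.964% in FA replicate 4 and 5.956% in DE replicate 1. For Tuba1a the highest FA share was 20.0% and the lowest DE share 20.5%. The shares of Tuba1a and Tuba1c rest on the uncertain split of reads, and that of Tuba8 on 225 counts. The shares of the other 6 overlapped, among them Tuba1b with 60.0 ± 0.778% and 61.0 ± 3.41% of the alpha sum and Tubb5 with 39.6 ± 2.47% and 40.9 ± 2.55% of the beta sum.

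**Figure D3:**
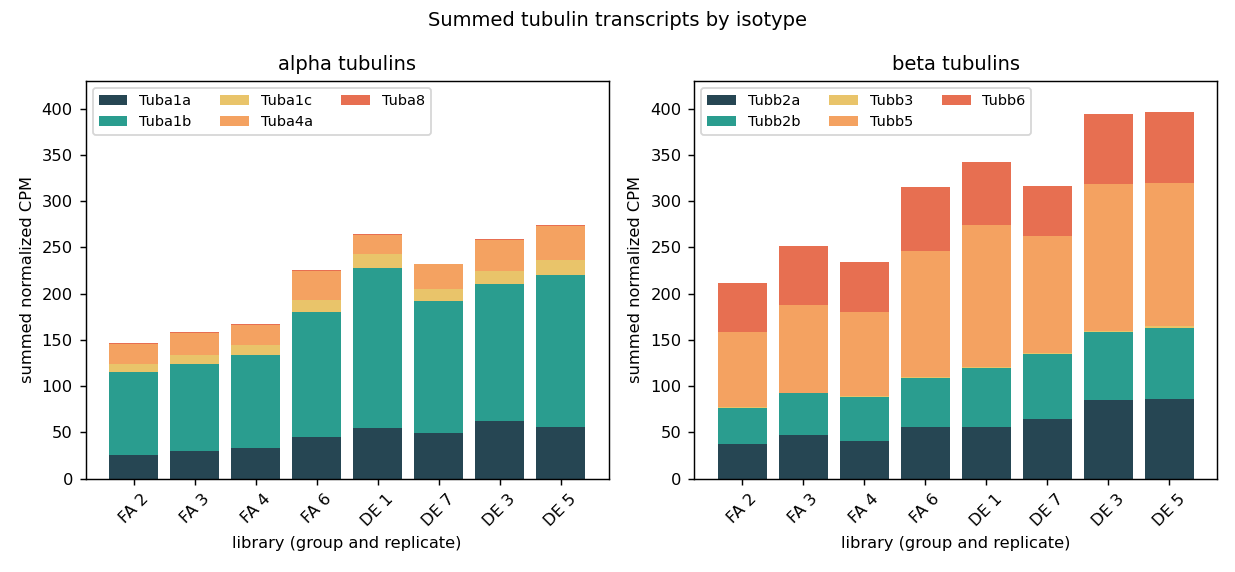
Normalized CPM of the alpha (left) and beta (right) tubulins stacked by isotype in each library, from 0. The 4 DE bars stand above the 4 FA bars, from 232.3 against at most 225.5 CPM for alpha and from 316.1 against at most 315.7 CPM for beta, and FA replicate 6 is the tallest FA bar in both.

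FA replicate 6 was the highest FA library for 9 of the 10 genes (25.6% of all tested genes) and FA replicate 2 the lowest for 8 (23.7%). For Tubb3 this was turned round, with FA replicate 2 the highest and FA replicate 6 the lowest. In DE, replicate 5 was the highest for 7 genes (29.2% of all tested genes), replicate 1 was the highest for Tuba1b, and replicates 1 and 7 were the lowest for 4 and 6. For 8 of the 10 genes both DE libraries with the number 12 lay above both with the number 11, which held for 29.9% of all tested genes. For Tubb2a the means were 85.6 CPM with 12 and 60.2 CPM with 11, for Tubb3 1.89 and 1.06 CPM, and for Tuba4a 35.2 and 23.5 CPM. For Tuba1b they were 155.9 and 157.9 CPM, with overlap.

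Since all FA libraries carry the number 11, the comparison was repeated within it, with 4 FA and 2 DE libraries. None of the 10 genes was then called by edgeR's quasi-likelihood test, and 260 of 14895 tested genes were called in all. An unadjusted p under 0.05 was found for 8 of the 10, 7 of them higher in DE and Tuba8 lower. The share of all tested genes under 0.05 in this fit was not taken, so the count of 8 has no background. The log2 fold change of Tuba1a was 0.63 (adjusted p = 0.119), that of Tuba1b 0.59 (adjusted p = 0.107), that of Tubb2b 0.53 (adjusted p = 0.0773), that of Tubb2a 0.41 (adjusted p = 0.231) and that of Tubb3 0.77 (adjusted p = 0.280). With the number as a term over all 8 libraries, Tubb2b was called (0.53, adjusted p = 0.0452) and the other 9 were not. Tuba4a turned to -0.055 within the number 11 and to -0.051 with the term. The log2 fold change of Tuba8 was -0.92 in both fits (adjusted p = 0.159 and 0.113, edgeR).

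The calls also depended on single libraries. Tubb2b was called whichever library was left out, with a log2 fold change from 0.54 to 0.69 and an adjusted p of at most 0.0449 (edgeR). It was the only member called without FA replicate 2, FA replicate 3, FA replicate 4 or DE replicate 3, and without DE replicate 5 it was called with Tuba1a. The adjusted p of Tuba1a was at most 0.0794 and that of Tuba1b at most 0.107 in these fits. Those of Tubb2a and Tubb3 were at most 0.118 and 0.126. Without DE replicate 1 the call of Tuba1b was lost (adjusted p = 0.0503). Without FA replicate 6 that of Tubb3 was lost (adjusted p = 0.0792), while Tuba1c and Tubb5 were called at 0.0241 and 0.00791. All log2 fold changes kept their sign when a library was left out. DESeq2 called 7 members, adding Tuba1c and Tubb5.

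**Figure D4:**
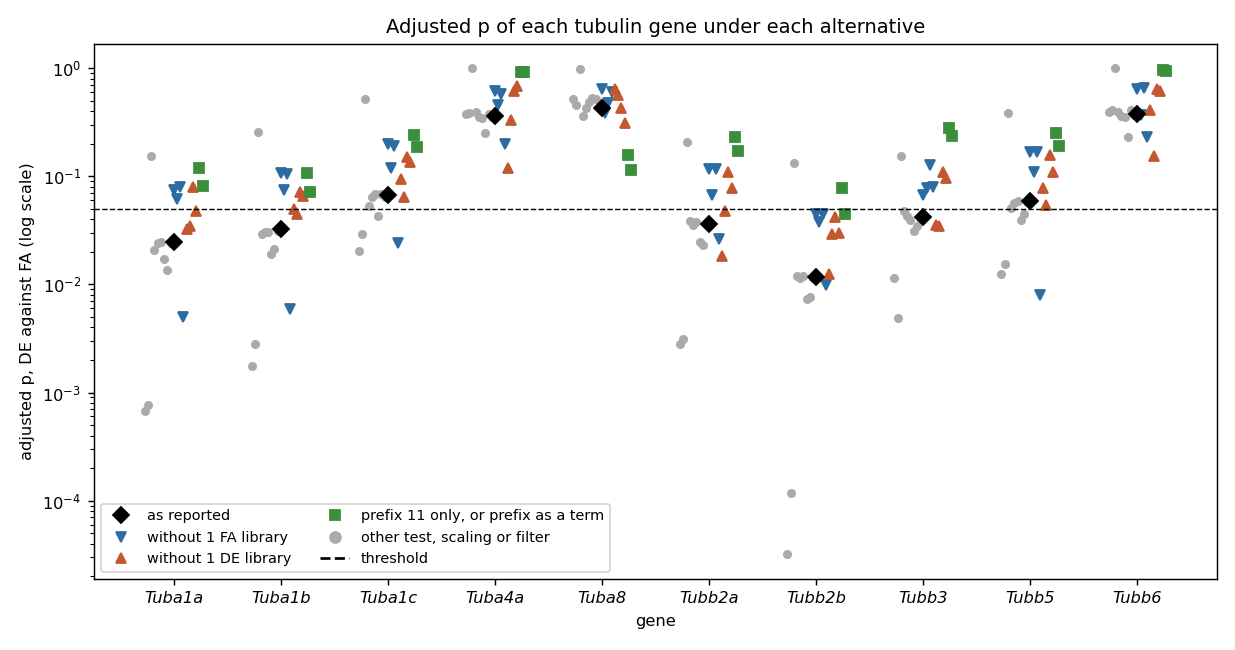
Adjusted p of DE against FA for each member (log axis) as reported (black diamond) and under each alternative, with the dashed line at 0.05. Tubb2b stays below the line when any FA (blue) or DE (orange) library is left out, whereas Tuba1a, Tuba1b, Tubb2a and Tubb3 cross it. The green squares, which use only libraries with the number 11 or take the number as a term, lie above the line except for Tubb2b at 0.0452.

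Other tubulins were not called. Of 10 on the list, 7 passed the filter, and the median of their log2 fold changes was 0.45. In DE 6 of them were higher. By DESeq2 and by edgeR's likelihood ratio test 1 was called, against 10.9% and 10.7% of all tested genes. Of the 7, 2 had an unadjusted p under 0.05 in the quasi-likelihood test, against 25.6% of all tested genes. Tubb4b, an abundant beta tubulin of cilia and many other microtubules, averaged 116.6 ± 18.5 CPM in FA against 158.9 ± 30.3 CPM in DE (log2 fold change 0.45, 95% interval 0.11 to 0.78, adjusted p = 0.102, edgeR). DE replicates 1 and 7, at 131.3 and 136.2 CPM, lay within the FA range of 96.7 to 136.2 CPM. Over the alternatives the log2 fold change of Tubb4b ran from 0.19 to 0.53. Tubg1, the gamma tubulin from which microtubules are nucleated, was at 18.4 ± 5.44 and 28.1 ± 5.47 CPM (log2 fold change 0.61, adjusted p = 0.0892, edgeR). Without FA replicate 6 it was called (adjusted p = 0.0265), and with other single libraries left out its adjusted p was at most 0.235. Over all alternatives its log2 fold change ran from 0.35 to 0.83. The log2 fold changes of Tubb4a, Tuba3b, Tube1, Tubg2 and Tubd1 were 0.60, 0.47, 0.37, 0.17 and -0.23. Their 95% intervals all included 0.

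Genes that fold, modify or regulate tubulin were taken as 7 lists, whose counts stand against 5.8% called by the quasi-likelihood test, 10.9% called by DESeq2 and 25.6% with an unadjusted p under 0.05 among all tested genes. None of the 7 tubulin folding cofactors was called (median 0.07), nor any of the 14 genes of the CCT chaperonin and prefoldin (median 0.07), which fold new tubulin. In both lists none had an unadjusted p under 0.05, and none was called by DESeq2, limma-voom or the likelihood ratio test. Among 18 tested genes that modify the tubulin tail, 1 was called, about the share of all genes, with 2 at an unadjusted p under 0.05 and 1 called by DESeq2, and the median was -0.05. The called gene was Vash1, whose product removes the terminal tyrosine of alpha tubulin, and it rose from 49.6 ± 7.83 to 81.0 ± 14.1 CPM (log2 fold change 0.71, SE 0.15, edgeR adjusted p = 0.0226). Its call was lost without FA replicate 3 (adjusted p = 0.0558) or DE replicate 3 (adjusted p = 0.0673). Svbp, the partner of Vash1, and Ttl, the ligase that restores the tyrosine, were singled out after their values were seen. They had log2 fold changes of 0.15 (95% interval -0.15 to 0.44) and 0.10 (95% interval -0.09 to 0.30). Of the 2 genes tied to the decay of tubulin messages when free tubulin is in excess, Scaper fell from 34.4 ± 2.85 to 25.9 ± 1.35 CPM (log2 fold change -0.41, SE 0.10, edgeR adjusted p = 0.0356). Ttc5 was at 19.9 ± 1.30 and 20.5 ± 1.92 CPM (log2 fold change 0.04, adjusted p = 0.839). Scaper was called in 2 of the 8 fits that left out a library, those without FA replicate 3 or DE replicate 1, with an adjusted p of at most 0.123.

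Of 25 tested genes of microtubule dynamics and severing, 3 were called, 1 higher and 2 lower. Their log2 fold changes ran from -0.55 to 0.86 with a median of -0.04. Of the 25, 11 had an unadjusted p under 0.05, DESeq2 called 6 and the likelihood ratio test 5. Stmn1, a protein that binds free tubulin dimers and is high in dividing cells, rose from 146.8 ± 26.6 to 215.5 ± 26.2 CPM (log2 fold change 0.55, SE 0.14, edgeR adjusted p = 0.0426). Clasp1, which stabilises growing microtubule ends, fell from 534.4 ± 51.7 to 365.5 ± 47.3 CPM (log2 fold change -0.55, SE 0.12, adjusted p = 0.0247). Katnal1, a severing enzyme, fell from 12.5 ± 1.60 to 8.84 ± 0.621 CPM (log2 fold change -0.50, SE 0.12, adjusted p = 0.0417). Clasp1 was called in 4 of the 8 fits that left out a library and was not called without FA replicate 2, FA replicate 4, DE replicate 3 or DE replicate 5. Stmn1 and Katnal1 were called in 2, those without FA replicate 6 or DE replicate 1. None of the 18 tested microtubule-associated proteins (median -0.01) or the 8 genes of the gamma-tubulin ring complex (median -0.07) was called. At an unadjusted p under 0.05 they had 1 and 2 genes, and DESeq2 called 0 and 1. Within the number 11 no gene of these lists was called by the quasi-likelihood test, where Vash1 had a log2 fold change of 0.63 and Clasp1 one of -0.41.

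Some markers of other cells differed between the exposure groups. Of all tested genes 5.8% were called, 10.9% were called by DESeq2 and 25.6% had an unadjusted p under 0.05. A log2 fold change above 0 was found for 50.5%. The counts of the marker lists, here and in the next paragraph, stand against these shares. In bulk RNA, fewer cells of a type and less RNA per cell cannot be told apart. All 10 fibroblast markers had a log2 fold change above 0, with a median of 0.66, and 3 were called (Col1a1, Dcn and Dpt). DESeq2 called 7 of them, and 8 had an unadjusted p under 0.05. Their summed level was 2211 to 3755 CPM in FA and 3924 to 6587 CPM in DE, without overlap, and no marker of the list was at 0. Of the FA libraries replicate 6 had the highest fibroblast sum, and of the DE libraries replicate 1 had the highest and replicate 5 the lowest. Of 16 markers of dividing cells, 15 had a log2 fold change above 0, with a median of 0.31, and 5 were called (Cdk1, Bub1, Aurkb, Birc5 and Ccna2). Their sum was 1020 to 1368 CPM in FA, with FA replicate 6 the highest, and 1352 to 1628 CPM in DE, with replicate 1 the highest and replicate 3 the lowest. Within the number 11, where 260 of 14895 tested genes were called, the fibroblast count was 3 and the count for dividing cells 0. With single libraries left out they ran from 1 to 5 and from 1 to 6. The part of either in the tubulin differences was not tested.

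For Tubb3 the neuronal markers are the ones of interest. Of 14, 7 passed the filter, all 7 had a log2 fold change above 0 (median 0.45), and 1 was called, Gap43, which rose from 4.47 ± 0.732 to 8.09 ± 2.13 CPM (adjusted p = 0.0323, edgeR). Within the number 11 none was called, and with single libraries left out 0 or 1 was. The summed level was 35.9 to 52.0 CPM in FA and 50.7 to 77.0 CPM in DE. Most of it was Uchl1, at 35.4 ± 8.39 and 48.4 ± 8.72 CPM (adjusted p = 0.140). Prph, which encodes peripherin, averaged 0.344 ± 0.192 CPM in FA against 0.850 ± 0.355 CPM in DE (log2 fold change 1.24, adjusted p = 0.0955), and 3 of the 7 had an unadjusted p under 0.05. Snap25, Syt1 and Th had group means of at most 0.252 CPM, and none of the 14 was at 0 in all libraries. Glial markers summed to 17.8 to 26.3 CPM in FA and 12.9 to 16.8 CPM in DE, with 2 of 4 tested markers above 0 in log2 fold change and none called (3 at an unadjusted p under 0.05, 1 by DESeq2). The part of these cells in the Tubb3 difference was not tested. Endothelial, leukocyte and erythroid marker sums overlapped between the groups. Of the endothelial markers 9 of 10 had a log2 fold change above 0 (median 0.27), none was called, 5 had an unadjusted p under 0.05 and DESeq2 called 3. All 6 erythroid markers tested had a log2 fold change above 0 (median 0.41), and Slc4a1 was called (adjusted p = 0.0422, edgeR). Within the number 11 and in some fits without a library no erythroid marker was called. Of the leukocyte markers 5 of 6 tested were above 0 (median 0.45) and none was called, with 1 at an unadjusted p under 0.05 and 1 called by DESeq2. For smooth muscle and pericytes the sum was 1608 to 2181 CPM in FA and 1172 to 1579 CPM in DE, most of it Acta2 and Abcc9, while 5 of the 9 markers had a log2 fold change above 0 (median 0.09) and none was called.

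**Figure D5:**
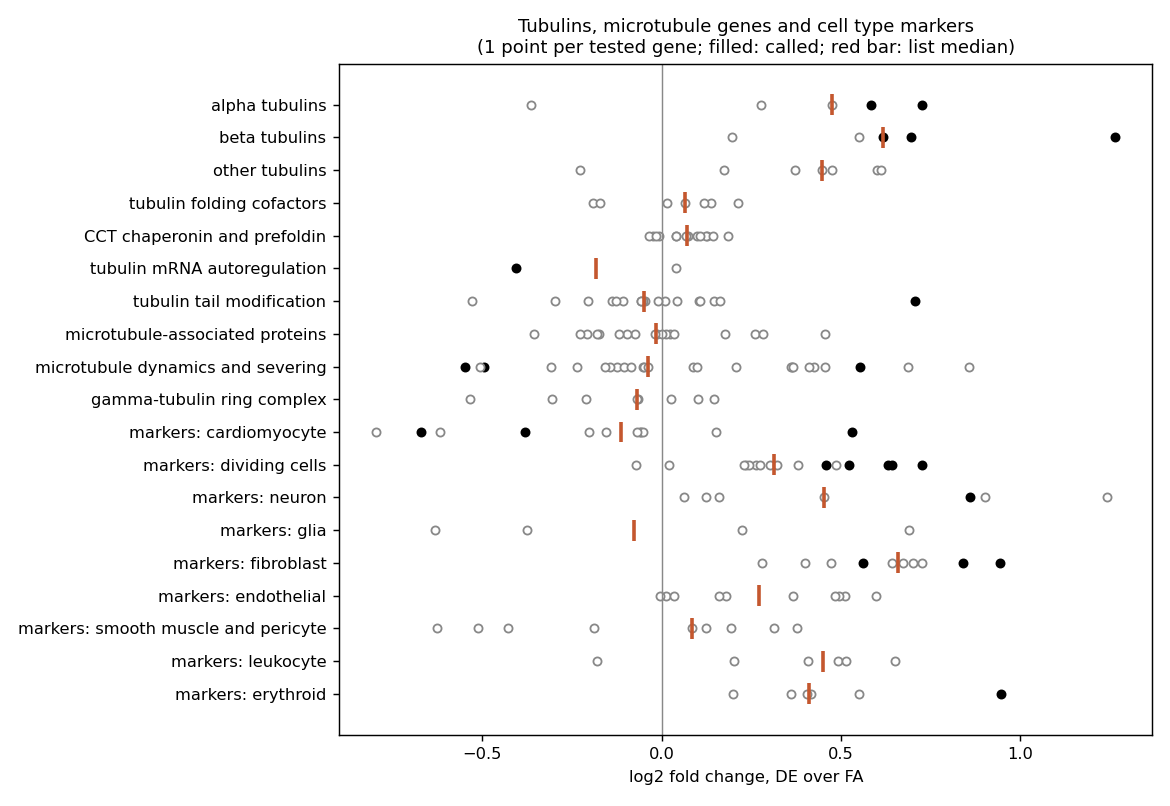
Log2 fold change of DE over FA for each tested gene of the tubulins, of the lists of microtubule genes and of the marker lists. Filled points are called genes and the red bar is the median of the list. The medians of the alpha, beta and other tubulins lie at 0.47, 0.62 and 0.45, those of the folding, tail-modifying and associated proteins within 0.1 of 0, and that of the fibroblast markers at 0.66.

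Genes outside the family that followed the called tubulins most closely were found by the root-mean-square difference of log2 CPM over the 8 libraries, each profile centred on its own mean. The members were picked as called, so genes with a like difference between the groups are found by construction. For Tubb2b the closest genes were Fen1 (0.0556) and Dnajc9 (0.0632). For Tuba1b they were Gm10080 (0.0681) and Ndc80 (0.0767). For Tuba1a they were Pidd1 (0.0860) and Bok (0.0866), for Tubb2a Grhpr (0.0729) and Prelid1 (0.0845). The nearest profiles of Tubb3, Isg15 (0.214) and Emilin3 (0.231), were further away than those of the other 4. Tubb3 had only 8 to 86 counts per library, where counting error widens such a distance, and its part was not tested.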

How the data were processed

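Stranded libraries were made from poly-A RNA. Tophat placed the reads on mm10 with the Ensembl transcriptome, Picard marked duplicates without removing them, and featureCounts assigned fragments to genes. The table deposited by the authors holds these counts, a row per Entrez ID and not normalized. The counting annotation, strand setting and treatment of fragments that match several genes are not given in the sources used here. Whether marked duplicates were counted is not stated. The methods state a smaller n per group than the labels, and all 8 libraries were used.

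Genes were named through a RefSeq table on GRCm38.p6 (25275 of 27179 matched). edgeR 4.0.16 in R 4.3.3 kept 14966 genes (filterByExpr, minimum count 10), scaled by TMM factors and tested DE against FA with glmQLFTest, exposure as the only term. CPM values use the same factors. No library was a copy of another of its group. The chi-square per gene was 5.37 for FA replicates 2 and 4 and at least 17.1 for every other pair within a group. Libraries of different groups were not compared. Exon lengths and coding sequences came from GENCODE M21. The alternatives were DESeq2 1.42.0, limma-voom (limma 3.58.1), the likelihood ratio test, the 25% difference built into the test, 3 other scalings, 2 other filters, the number in the sample name, and each library left out in turn. Their use on the other named genes and on list counts was added after the data were seen. The code was tested on simulated data.

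The members and lists were chosen with earlier results of these data known. Named genes were all members, other tubulins that passed the filter, called genes of the pathway lists (at most 4 each), and the 2 genes closest in profile to each called member. Svbp, Ttl, Ttc5 and the marker genes with values were named after their values were seen. Lists were written from general knowledge.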

Additional observations from a re-analysis of the deposited data

How the results depend on the processing

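The count of 5 called members was within 1.5 times under DESeq2, limma-voom, the likelihood ratio test, the other scalings and the other filters, where it was 5 to 7. It was 0 with the 25% difference built into edgeR's quasi-likelihood test, 0 within the number 11 and 1 with the number as a term. With the 25% difference built in, 6 members had an unadjusted p under 0.05, and the share of all genes was not taken. With single libraries left out it ran from 1 to 6. Over all genes, 868 were called, 1633 by DESeq2, 1603 by the likelihood ratio test, 114 with the 25% difference built in, 260 within the number 11 and 448 with the number as a term, and 237 to 1168 with single libraries left out. Without FA replicate 2, FA replicate 4 or DE replicate 3, 249, 237 and 268 were called. With library totals alone 78.7% of the called genes were higher in DE, against 61.8% with TMM factors. Tuba4a turned to -0.055 and -0.051, and Tubg2 to -0.035 and -0.028, within the number 11 and with the number as a term. The log2 ratios of the sums stayed positive, from 0.49 to 0.71 for alpha tubulin and from 0.37 to 0.64 for beta tubulin, over their alternatives. Tuba8 and Tuba3b were not tested at a mean of at least 1 CPM. Tubb3 and Tuba8 rest on 262 and 225 counts, which limits them. No paired analysis was made because the labels name no pairs of FA and DE libraries.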
